A study of Homo sapiens with 6 samples.

Results

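The comparison concerned how MDA-MB-231 cells respond to the miR-200a mimic alone. These cells are an established human line of triple-negative breast cancer with mesenchymal features. The libraries compared were chosen by their labels and were 4 of the 6 libraries of the series: 2 from cells that received a negative control mimic (NC mimic) and 2 from cells that received the miR-200a mimic (100 nM), all taken 48 h after lipid transfection. The remaining 2 libraries, labelled miR-200a plus ELK3, entered only the alternative in which all 6 libraries shared a model. Nothing in the sources used here says that the replicates came from separate cultures, or at which dose the NC mimic was given. The p-values below therefore measure the spread between libraries, pooled largely across genes, which may be technical. A difference in dose between the groups cannot be told apart from the mimic itself.

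MicroRNAs of the miR-200 family are abundant in epithelial cells and scarce in mesenchymal ones. They are best known for lowering the zinc-finger repressors ZEB1 and ZEB2, which themselves repress E-cadherin and other epithelial genes. A microRNA is loaded into an Argonaute protein and pairs with target mRNAs mainly through its seed, bases 2 to 8, after which the mRNA is destabilized or translated less. The family holds 2 seed groups that differ at a single seed base. A synthetic mimic is a duplex, and the study's methods give its second strand as the full complement of the first.

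The sequences below are shown because the seeds decide which transcripts carry a match, and because the opposite strand of the mimic has a seed of its own. The mature sequences came from RefSeq (GRCh38.p14), the opposite strand was computed as the complement of miR-200a-3p, and capitals mark bases 2 to 8.
hsa-miR-200a-3p: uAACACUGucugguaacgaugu
hsa-miR-141-3p: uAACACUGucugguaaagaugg
hsa-miR-200b-3p: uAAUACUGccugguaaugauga
hsa-miR-200c-3p: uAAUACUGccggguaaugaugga
hsa-miR-429: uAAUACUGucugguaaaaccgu
opposite strand of the miR-200a mimic: aCAUCGUUaccagacaguguua

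miR-200a-3p and miR-141-3p share 1 seed, and miR-200b-3p, miR-200c-3p and miR-429 share the other. A transcript can pair with bases 2 to 8 of miR-200a where it reads CAGTGTT, of miR-200b where it reads CAGTATT, and of the opposite strand where it reads AACGATG. The next lines give such sites in 3′UTRs of genes to which the results return, taken from GENCODE 29 (GRCh38), with the match in capitals and the coordinates of the match.
ELK3, miR-200a match, chr12:96269668-96269674, plus strand: tgcttaatCAGTGTTaaactgc
TGFB2, miR-200a match, chr1:218441471-218441477, plus strand: tggttcatCAGTGTTaaaaaat
TGFB2, opposite-strand match, chr1:218441425-218441431, plus strand: acgacgacAACGATGatgcttg
PSMA4, opposite-strand match, chr15:78549111-78549117, plus strand: tttattgtAACGATGatggtta
DPY19L1, opposite-strand match, chr7:34930265-34930271, minus strand: ttcttcaaAACGATGaaacctc
TRIAP1, opposite-strand match, chr12:120444572-120444578, minus strand: tgtatgcaAACGATGataaact
DERA, opposite-strand match, chr12:16037251-16037257, plus strand: tcatatacAACGATGaatatca

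Each of these 7 matches was followed by an A, which makes it an 8mer. DPY19L1 and PSMA4 also match bases 2 to 8 of miR-200a, at sites without that A that are not printed. The site of ELK3 began at base 2488 of a 3′UTR of 2655 bases. The 2 sites of TGFB2, which encodes a TGF-beta ligand, began at bases 63 and 109 of its 3′UTR.

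The depth was 4539903 and 3055915 counts for the NC mimic and 4772472 and 4868004 counts for miR-200a, so NC mimic replicate 2 was the shallowest library. A gene with 3 counts, the smallest value read as detected, stood at between 0.616 and 0.982 counts per 1000000 of the library's own total, and this floor covers counting error only. Of 24462 gene symbols, 12460 had enough counts to be tested. Of 9 genes that mark MDA-MB-231, all were detected, among them VIM, which encodes vimentin, at 2155 and 2462 CPM (counts per 1000000 of a library's scaled depth) with the NC mimic and 2181 and 2295 CPM with miR-200a. ESR1, the oestrogen receptor of luminal breast cells, had 0 counts in each of the 4 libraries. Of 12 genes that mark immune, endothelial, fibroblast or liver cells, 2 (PDGFRB and COL1A1) had enough counts to be tested and neither passed the test with edgeR or DESeq2; 1 had an unadjusted p under 0.05.

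The first question was which genes differ in level 48 h after the mimic. With edgeR's quasi-likelihood test, 983 of the 12460 genes (7.89%) had a Benjamini-Hochberg adjusted p under 0.05, 588 (4.72%) higher and 395 (3.17%) lower with miR-200a. The changes were small for most of these genes. The median fold was 1.46 among the higher and 1.36 among the lower genes, and a fold of 2 or more was reached by 98 higher and 35 lower genes. Under the criteria of the study's methods (unadjusted p under 0.05, fold over 1.5 and, as a stand-in for its normalized value, a mean log2 CPM above 3), 520 genes (4.17%) passed, 354 higher (2.84%) and 166 lower (1.33%). Both miR-200a libraries were above both NC mimic libraries in 24.8% of the tested genes and below them in 24.5%. Of the 983 genes that passed the test, 982 had no overlap, so its absence adds little to a call. The libraries of a group also differed: the root mean square difference in log2 CPM was 0.386 between the NC mimic libraries, 0.333 between the miR-200a libraries, and 0.416 to 0.469 between libraries of different groups. The count of genes depended on the tool and on the libraries fitted, and these settings change several choices at once: 356 genes passed in DESeq2, 34 (0.269%) with all 6 libraries in 1 model, 27 higher (0.213%) and 7 lower (0.0553%), and 0 in limma on quantile-normalized values, where 1880 genes had an unadjusted p under 0.05. It also fell to 262 without miR-200a replicate 1 and to 243 without miR-200a replicate 2, the smaller counts sharing 259 and 243 genes with the 983.

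**Figure D1:**
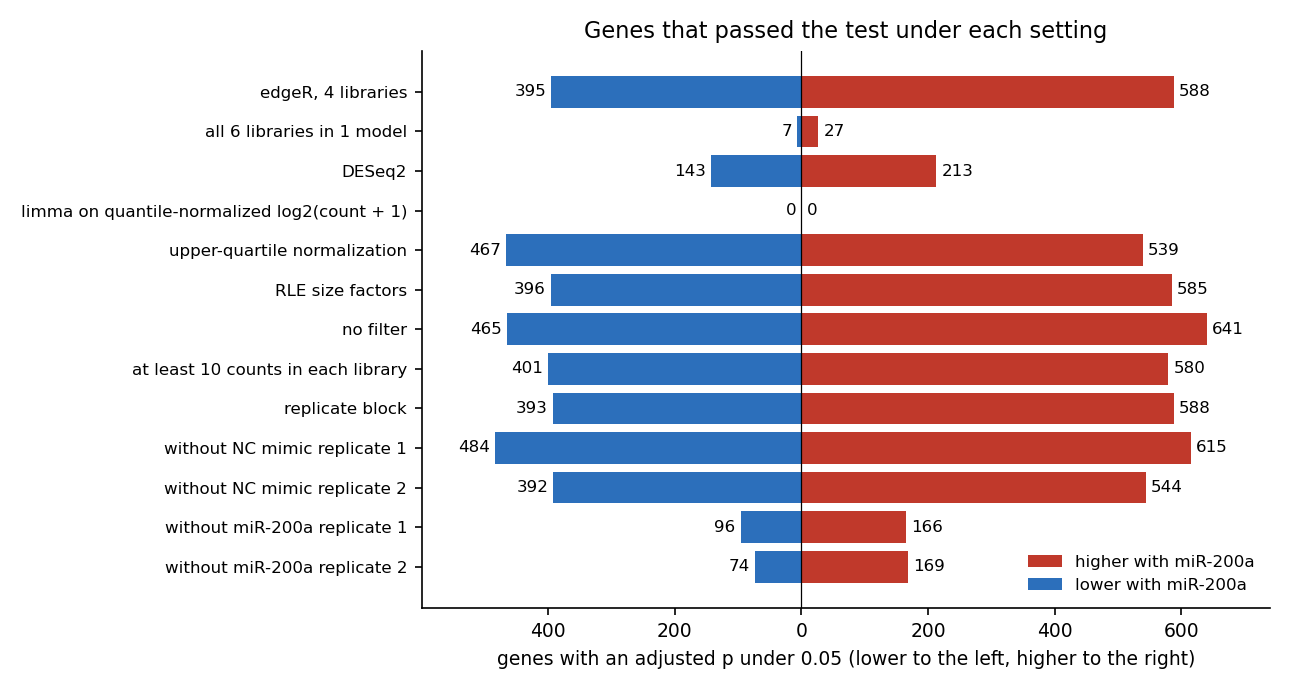
Number of genes with an adjusted p under 0.05 (horizontal axis; higher with miR-200a to the right, lower to the left) for edgeR on the 4 libraries and under 12 other settings (vertical axis). Scaling and filters move the counts little, and the model of all 6 libraries, DESeq2, limma and the loss of a miR-200a library lower them.

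**Figure D2:**
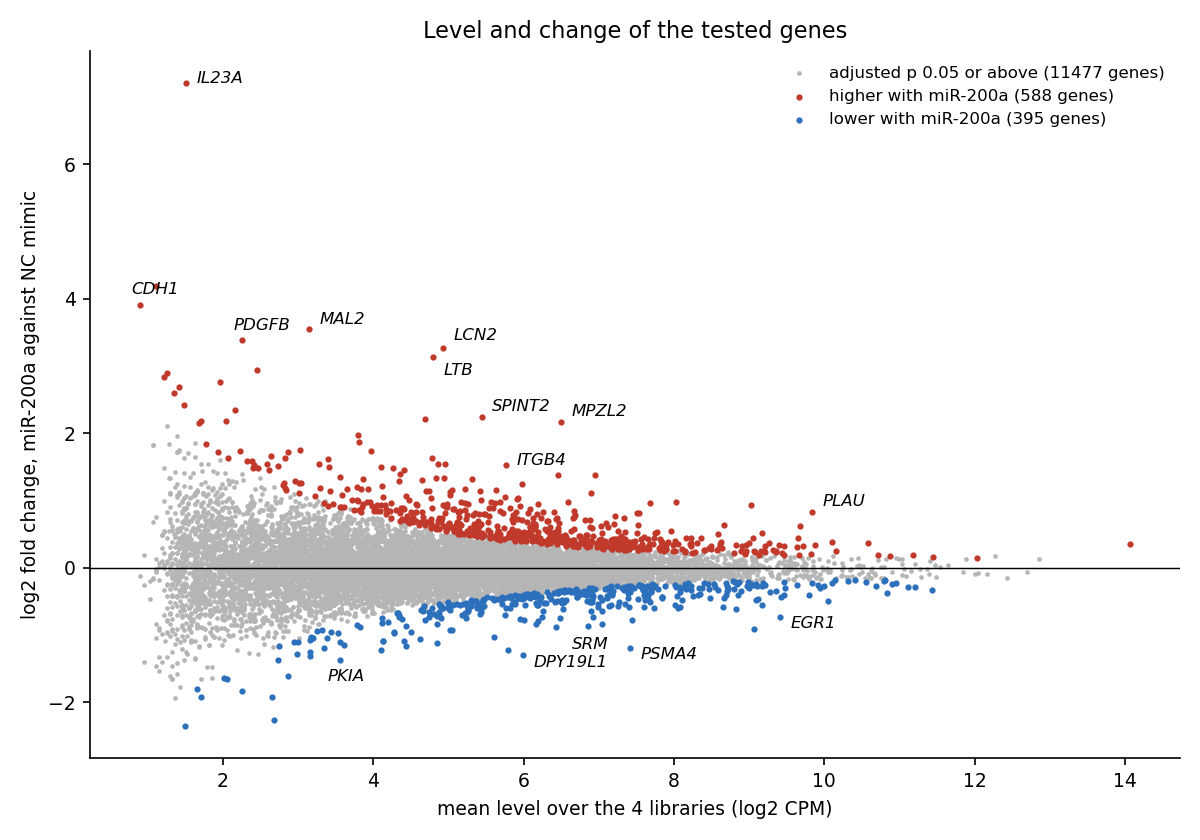
Log2 fold change of miR-200a against the NC mimic (vertical axis) against the mean level in log2 CPM (horizontal axis) for the 12460 tested genes, 1 point a gene, with the 588 higher and 395 lower genes in colour. The genes far above 0 lie mostly at low to middle levels, and the fitted values at the left edge, such as that of IL23A, rest on libraries with 0 counts and are no measure of size.

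The largest rises and falls named here are those among genes that passed the test with a mean log2 CPM over 3 and no overlap between the groups, so the absence of overlap in them follows from the choice. LCN2, which encodes the iron-scavenging secreted protein lipocalin 2, stood at 6.23 and 3.91 CPM in the NC mimic libraries and 49.7 and 51.7 CPM in the miR-200a libraries, a log2 fold change of 3.26 ± 0.22 (SE, adjusted p = 1.11e-11). LTB, which encodes the membrane cytokine lymphotoxin beta, went from 4.45 and 6.20 CPM to 47.0 and 44.8 CPM (3.14 ± 0.23, adjusted p = 1.95e-11). MAL2, which encodes a protein of apical membrane traffic, went from 7 and 2 counts to 55 and 82 counts (3.56 ± 0.44, adjusted p = 1.42e-06). Its log2 fold change was the largest of the 15, but it was 4.39 without NC mimic replicate 1 and 3.17 without NC mimic replicate 2, where that of LTB was larger (3.36). The second NC mimic library of MAL2 lay below the floor of 3 counts, and those of LCN2 and LTB lay above it. MAL2 reached the test only through the miR-200a libraries, where it was high, so its adjusted p is no independent support for its rise.

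MPZL2, which encodes an epithelial junctional adhesion molecule, had the smallest p of all tested genes and was measured at higher counts. It stood at 32.5 and 30.7 CPM with the NC mimic and 143 and 142 CPM with miR-200a (4.49-fold, adjusted p = 4.19e-14). SPINT2, an inhibitor of membrane serine proteases, went from 12.7 and 16.6 CPM to 67.2 and 68.2 CPM (4.71-fold). Its gene span overlaps that of PPP1R14A. The counting strand is not given in the sources used here and overlap of the 3′ ends was not examined, so some reads may be shared. The same holds for each overlap of gene spans named below, and overlaps of other named genes are not listed. The other genes among the 15 largest rises were PM20D2 (4.65-fold), the serine protease PRSS22 (3.94-fold), ZNF165 (3.67-fold), VSTM2L (3.38-fold), the cytokine receptor IL6R (3.35-fold), the water and glycerol channel AQP3 (a log2 fold change of 1.63), TMC8 (3.05-fold), the desmosomal plakophilin PKP3 (2.91-fold), GRAMD4 (2.90-fold) and the sphingosine-1-phosphate phosphatase SGPP1 (2.90-fold). Of the 15, 12 passed the test whichever library was left out; VSTM2L, TMC8 and GRAMD4 did not. With all 6 libraries in 1 model, 8 of the 15 passed.

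Several genes rose from at or below the floor, so only a lower bound of their fold can be given. IL23A, a cytokine subunit, had 0 counts in both NC mimic libraries and 25 and 16 with miR-200a, at least 5.19-fold higher (adjusted p = 2.11e-04). PDGFB, a platelet-derived growth factor chain, had 3 and 2 counts and then 27 and 42, at least 8.69-fold higher (adjusted p = 1.59e-04). ARVCF, a catenin that binds cadherins, had 1 and 0 counts and then 14 in each library, at least 3.54-fold higher (adjusted p = 0.0051). These 3 genes were chosen after their values were seen. Each had fewer than 10 counts in both NC mimic libraries and reached the test only through the miR-200a libraries, where it was high. Their adjusted p-values are therefore no independent support for a rise.

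The falls were shallower than the rises. Of the 15 largest by the same choice, PKIA ranged widest relative to its level within the NC mimic group. This gene, which encodes an inhibitor of protein kinase A, stood at 10.7 and 25.8 CPM, against 6.53 and 6.98 CPM with miR-200a (-1.37 ± 0.32, adjusted p = 0.00601). DPY19L1, which encodes a C-mannosyltransferase, stood at 92.1 and 92.3 CPM and then at 39.4 and 35.7 CPM (-1.30 ± 0.12, adjusted p = 8.10e-09). PSMA4, an alpha subunit of the proteasome core, had the smallest p of these 15. It stood at 232 and 251 CPM with the NC mimic and 106 and 104 CPM with miR-200a, 2.29-fold lower (adjusted p = 1.11e-11). Of 37 tested proteasome subunits, 1 other, PSMC4, passed the test and rose (0.35 on the log2 scale). In this list 5.4% of the genes passed, beside 7.89% of all tested genes. PSMC4 did not pass with all 6 libraries in 1 model (adjusted p = 0.532).

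TRIAP1, which encodes a mitochondrial protein of lipid transfer, went from 75.0 and 84.5 CPM to 31.4 and 36.5 CPM (2.33-fold lower, adjusted p = 1.32e-07). The other genes among the 15 largest falls, with log2 fold changes from -1.31 to -1.08, were LINC00883, the ligand gene NRG1, the lysosomal thioesterase PPT2, IPO5P1, the stearoyl-CoA desaturase SCD5, the cyclin CCNE1, UBFD1, EYA4, the complement protease C1R, the deoxyribose-phosphate aldolase DERA and TMEM41B. Reads of PPT2 may be shared with its readthrough PPT2-EGFL8, and reads of UBFD1 with EARS2, since their gene spans overlap. IPO5P1 is a pseudogene of the nuclear import receptor IPO5, which also fell (-0.60 ± 0.08), and reads of the pair may have been split between them. Of the 15 falls, DPY19L1, TRIAP1, PSMA4, SCD5 and UBFD1 passed the test whichever library was left out, and PSMA4 alone passed with all 6 libraries in 1 model.

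**Figure D3:**
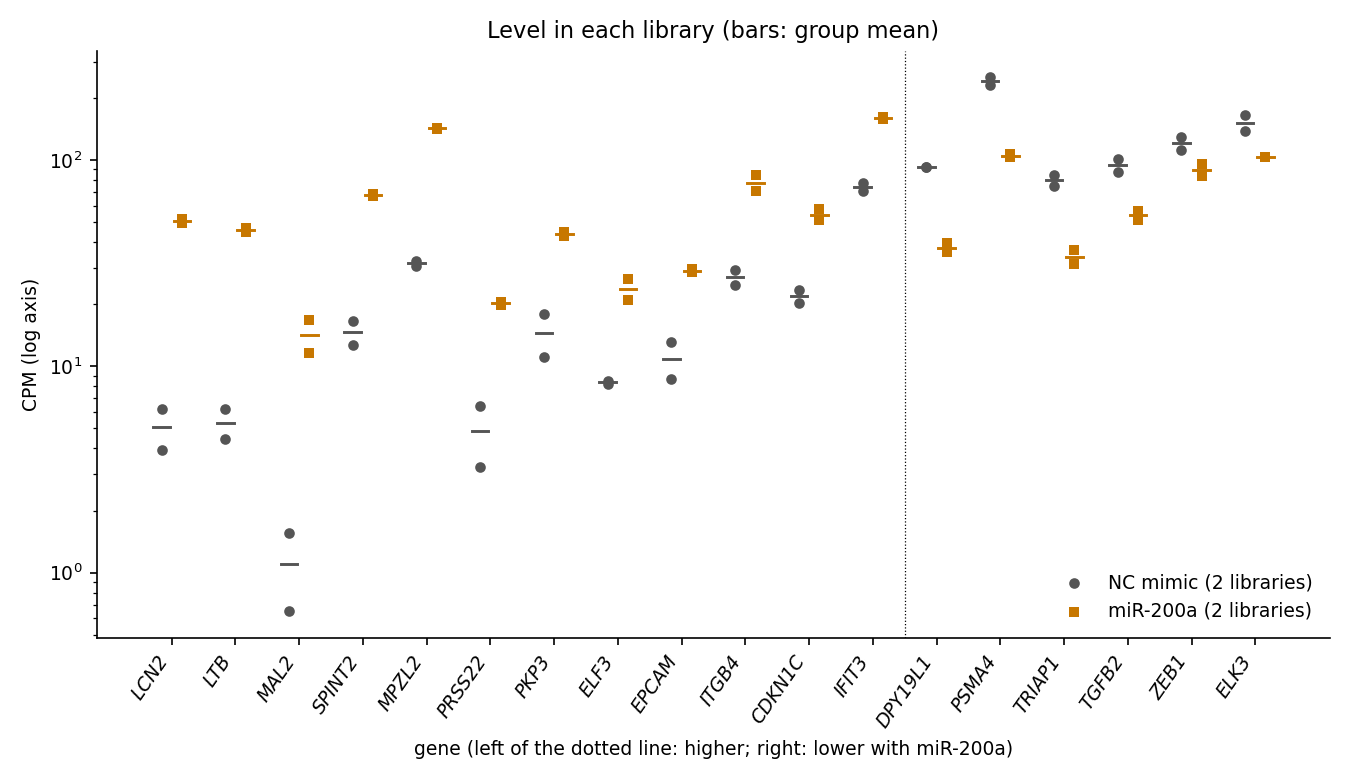
CPM on a log axis in each of the 4 libraries for 12 genes that were higher (left of the dotted line) and 6 that were lower with miR-200a, with circles for the NC mimic, squares for miR-200a and short bars for the mean of 2 libraries. The gap between the groups is widest for LCN2, LTB and MAL2, and most of the genes were chosen among those whose groups do not overlap.

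For every gene list below, the counts stand beside 4.72% of all tested genes that rose and 3.17% that fell. Epithelial junction and identity genes formed the list with the most calls in 1 direction. Of 50 listed, 34 had enough counts to be tested, and 17 of the 34 rose and 0 fell, beside 4.72% of all tested genes that rose. The list was written with earlier results of these data known. Among the 17, CDH1 and MAL2 had fewer than 10 counts in both NC mimic libraries. They reached the test only through the miR-200a libraries, where they were high, so their rises are no independent support for the list. The median log2 fold change of the 34 was 0.64, beside -0.0033 over all tested genes, and the list's median lay between 0.53 and 0.70 in the 4 pairings of 1 library of each group. The members that rose included genes of tight junctions (CLDN4, CLDN12, F11R, LSR), desmosomes (DSP, DSG2, PKP3), polarity (PARD6B) and apical traffic (MAL2), a protease and an inhibitor of proteases (PRSS22, SPINT2), the surface antigen EPCAM, the ETS factors ELF3 and EHF, MPZL2 and CDH1. Leaving out miR-200a replicate 1 or replicate 2 left 12 of the 17, and 10 passed whichever library was left out. With all 6 libraries in 1 model 4 passed. In RNA from a whole culture, a change in the number of cells that express a gene and a change in its RNA per cell cannot be told apart.

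DSP, which encodes the desmosomal linker desmoplakin, went from 137 and 123 CPM to 239 and 221 CPM (1.75-fold, adjusted p = 4.93e-08). EPCAM, the epithelial cell adhesion molecule, went from 8.68 and 13.1 CPM to 29.5 and 28.7 CPM (2.75-fold, adjusted p = 3.71e-05). ELF3, an ETS factor of epithelial cells, went from 8.23 and 8.48 CPM to 20.9 and 26.5 CPM (2.83-fold, adjusted p = 8.47e-05). In each of the 3 both miR-200a libraries were above both NC mimic libraries, as in 24.8% of all tested genes and nearly all that passed. CDH1, which encodes E-cadherin, remained scarce: its counts were 1 and 0 for the NC mimic, then 11 and 12, at least 2.90-fold higher (adjusted p = 0.0138), and its adjusted p was 0.154 without NC mimic replicate 2 and 0.152 with all 6 libraries in 1 model. Other regulators of epithelial identity stayed out of reach of the test, with ESRP1, GRHL2, OVOL1 and OVOL2 among the 16 listed genes with too few counts.

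Keratins are the intermediate filaments of epithelia. Of 9 tested keratins, 4 rose (KRT8, KRT19, KRT7 and KRT80) and KRT81 fell. Among all tested genes 4.72% rose and 3.17% fell. KRT8 went from 78.1 and 80.9 CPM to 116 and 116 CPM (0.55 ± 0.10) and was the only one of the 5 to pass whichever library was left out, and its partner KRT18, at 0.18 ± 0.09, did not pass the test. The gene spans of KRT8 and KRT18 overlap in the annotation, so some of their reads may be shared. Of 8 tested S100 calcium-binding proteins, 5 rose and 0 fell, with a median log2 fold change of 0.26, and S100A2 changed the most of the 5, from 152 and 133 CPM to 229 and 214 CPM (1.55-fold). S100A2 was also the only one of the 5 to pass without miR-200a replicate 1 or without miR-200a replicate 2.

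Integrins and basement membrane genes encode receptors and components of the matrix under epithelial cells. ITGB4, the beta subunit of the hemidesmosomal integrin, went from 24.7 and 29.4 CPM to 70.6 and 84.2 CPM (2.90-fold, adjusted p = 8.10e-09), and its alpha partner ITGA6 rose less (1.29-fold). LAMB3, a chain of the epithelial laminin of hemidesmosomes, rose 1.55-fold. LAMA5, an alpha chain of other laminins, rose 1.77-fold, and its gene span overlaps ADRM1 and LAMA5-AS1, as that of ITGB4 overlaps GALK1. Of 11 tested integrins 3 rose and 0 fell, and of 16 tested basement membrane genes 3 rose and 0 fell. Among all tested genes 4.72% rose, and the medians of these lists, 0.06 and 0.02, were near that of all genes. LAMB3, LAMA5 and ITGB4 passed whichever library was left out, and ITGB4 passed with all 6 libraries in 1 model.

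Among 27 tested matrix proteases and inhibitors, 9 rose and 3 fell, beside 4.72% and 3.17% of all tested genes, with a median log2 fold change of 0.25. The plasminogen activator urokinase, PLAU, went from 655 and 658 CPM to 1148 and 1182 CPM (1.77-fold, adjusted p = 1.11e-11), and its receptor PLAUR rose 1.35-fold, while SERPINB2, an inhibitor of urokinase, fell (-1.61 on the log2 scale). MMP3, a stromelysin, fell from 39 and 16 counts to 8 and 11 (-1.84 ± 0.45, adjusted p = 0.00865). PLAU, PLAUR, ADAM19 and SPINT2 passed whichever library was left out, and 5 of the 12 remained without miR-200a replicate 1 and 4 without miR-200a replicate 2. With all 6 libraries in 1 model SPINT2 alone passed, and the adjusted p of PLAU was 0.498.

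Mesenchymal genes moved in both directions, beside 4.72% of all tested genes that rose and 3.17% that fell. Of 18 tested factors and markers of the epithelial-mesenchymal transition, 3 rose and 3 fell, with a median of -0.03. FN1, which encodes fibronectin, went from 491 and 478 CPM to 325 and 325 CPM (-0.58 ± 0.06, adjusted p = 2.27e-07), and LOXL2, a collagen cross-linking lysyl oxidase, went from 319.5 and 330.1 CPM to 216 and 218 CPM (-0.58 ± 0.07). COL6A1, a collagen VI chain, moved the other way (0.58 ± 0.10), as did S100A4 and COL5A1. FN1, LOXL2 and COL6A1 passed whichever library was left out, and none of the 6 passed with all 6 libraries in 1 model. VIM did not pass the test (-0.04 ± 0.06), nor did SNAI2, which encodes the factor Slug (0.22 ± 0.13).

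Genes described as direct targets of miR-200a were compared next, to ask whether they were lower. Among all tested genes 3.17% fell and 4.72% rose. Of 15 listed, all were tested, 3 fell (TGFB2, ELK3 and ZEB1), 2 rose (CTNNB1 and CDK6), and 10 did not pass the test. The median log2 fold change of the 15 was -0.17. The 3 that fell each carry a miR-200a 8mer, as do ZEB2, EPHA2, KEAP1 and E2F3, which did not pass. CTNNB1 and CDK6 carry no 8mer, and TGFB2 also carries an 8mer for the opposite strand of the mimic. Of the 5 that passed, 2 remained without miR-200a replicate 1 and 2 without miR-200a replicate 2. ELK3, the ETS-family ternary complex factor whose 3′UTR the study examined, stood at 138 and 166 CPM with the NC mimic and 104 and 104 CPM with miR-200a, 1.45-fold lower (-0.54 ± 0.10, adjusted p = 3.05e-04). The groups did not overlap, as in nearly all genes that passed, and the NC mimic libraries lay farther apart than the miR-200a libraries. The highest adjusted p for ELK3 with 1 library left out was 0.0466, and it was 0.232 with all 6 libraries in 1 model. TGFB2 went from 87.0 and 101 CPM to 56.9 and 51.1 CPM (-0.79 ± 0.12, adjusted p = 2.15e-05), and its gene span overlaps that of TGFB2-OT1, so some reads may be shared.

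ZEB1, with 3 matches to bases 2 to 8 of miR-200a in its 3′UTR, went from 129 and 112 CPM to 95.8 and 84.0 CPM (-0.43 ± 0.10, adjusted p = 0.00684), but its adjusted p was 0.257 without miR-200a replicate 2. ZEB2, with 4 such matches, was scarce, with counts of 42 and 22 for the NC mimic and 20 and 25 for miR-200a (-0.84 ± 0.36, adjusted p = 0.169). YAP1, the transcriptional coactivator of the Hippo pathway (-0.26 ± 0.10), EPHA2, an ephrin receptor (-0.24 ± 0.09), and MAPK14, a stress-activated kinase (-0.17 ± 0.11), had negative values that did not pass the test. KEAP1, E2F3, SIRT1, BAP1, GAB1 and ERRFI1 lay between -0.18 and 0.28 and did not pass either. CTNNB1, which encodes beta-catenin, went from 412 and 390.1 CPM to 508 and 504 CPM (1.26-fold), and CDK6, a G1 kinase, rose 1.29-fold. TNS1, which encodes a focal adhesion protein, went from 14 and 8 counts to 33 and 30 (1.17 ± 0.42, adjusted p = 0.0896).

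Of the tested genes, 11485 had a 3′UTR in the annotation, and each was placed by its best match to the seed. An 8mer pairs with bases 2 to 8 and is followed by an A, a 7mer-m8 lacks that A, and a 7mer-A1 pairs with bases 2 to 7 followed by an A. For miR-200a, the share of lower genes was larger in the longer classes of match. Of 663 genes with an 8mer (5.77% of those with a 3′UTR), 8.30% were lower and 3.62% higher, with a median log2 fold change of -0.07, and of 1833 with a 7mer-m8, 4.91% were lower and 5.07% higher (median -0.02). Of 8332 genes with none, 2.52% were lower and 5.19% higher (median 0.01). The share that was lower was 2.55% with 0 matches to bases 2 to 8, 4.87% with 1, 8.50% with 2 and 9.49% with 3 or more. Genes with an 8mer had longer 3′UTRs, with a median of 3446 bases against 987 for those with none, and the part of 3′UTR length in the shares was not tested. For the seed of miR-200b, which the mimic does not carry, 4.9% of 612 genes with an 8mer were lower and 7.52% higher (median -0.02), beside 3.02% lower and 4.65% higher among 8498 genes with none.

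The 55 lower genes with a miR-200a 8mer included KCTD20, with 3 matches (-0.84 ± 0.10, adjusted p = 3.34e-07), the non-muscle myosin heavy chain MYH10, with 2 (-0.73 ± 0.10), the histone chaperone ANP32E, with 2 (-0.56 ± 0.08), and SCD5, UBFD1 and TMEM41B from the 15 largest falls. KCTD20 went from 162 and 181 CPM to 103 and 87.7 CPM and MYH10 from 162 and 139.9 CPM to 88.0 and 94.8 CPM. The groups overlapped in neither gene, as in nearly all genes that passed. MPZL2, the gene with the smallest p among those that rose, also carries a miR-200a 8mer. The class median kept its sign with each library left out, between -0.08 and -0.05, while the number of lower genes among the 55 that passed fell to 15 without miR-200a replicate 1 and to 15 without miR-200a replicate 2.

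Matches to the opposite strand of the mimic were rarer, and the share of their genes that was lower was larger; these shares and medians are descriptions with no test. Of 67 genes with an 8mer for this strand (0.583% of those with a 3′UTR), 15 were lower (22.4%) and 2 higher, with a median log2 fold change of -0.22, and of 205 with a 7mer-m8, 9.27% were lower (median -0.07). Of 11032 genes with none, 2.98% were lower. The 67 genes had 3′UTRs of a median 3382 bases, close to the 3446 bases of the miR-200a 8mer class. The 15 lower genes were DPY19L1, TRIAP1, PSMA4, DERA, TGFB2, CD99, GPD2, SFXN1, ERGIC2, MCFD2, HBEGF, C6orf89, NUB1, RBM15B and MDM4. Of the 15 largest falls by the choice above, 4 (DPY19L1, TRIAP1, PSMA4 and DERA) carry such an 8mer, whose sites are printed above, and none of the 15 largest rises does.

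The 2 kinds of match overlapped in part. Of the 67 genes, 27 also matched bases 2 to 8 of miR-200a, and 7 of these 27 were lower. The other 40 held no such match, and 8 of them were lower and 0 higher, with a median of -0.18. A further 633 genes had a miR-200a 8mer and no match to bases 2 to 8 of the opposite strand. Their median was -0.07, and 7.90% were lower. Over pairings of 1 library of each group, the median of the 40 ran from -0.266 to -0.076. That of the 633 ran from -0.093 to -0.043. These ranges overlapped, so the medians do not separate the 40 genes from the 633. The split into these sets was chosen after the data were seen. The median of the 67 genes lay between -0.24 and -0.21 with each library left out, and between -0.25 and -0.13 over the same pairings. Of the 15 lower genes, 12 passed without miR-200a replicate 1 and 9 without miR-200a replicate 2, and 1, PSMA4, passed with all 6 libraries in 1 model. CD99, a surface glycoprotein with a match to the opposite strand alone, stood at 231 and 209 CPM with the NC mimic and 132 and 127 CPM with miR-200a (-0.77 ± 0.08, adjusted p = 1.14e-07). HBEGF, a ligand of the EGF receptor, went from 321 and 293 CPM to 204 and 214 CPM (-0.56 ± 0.07).

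**Figure D4:**
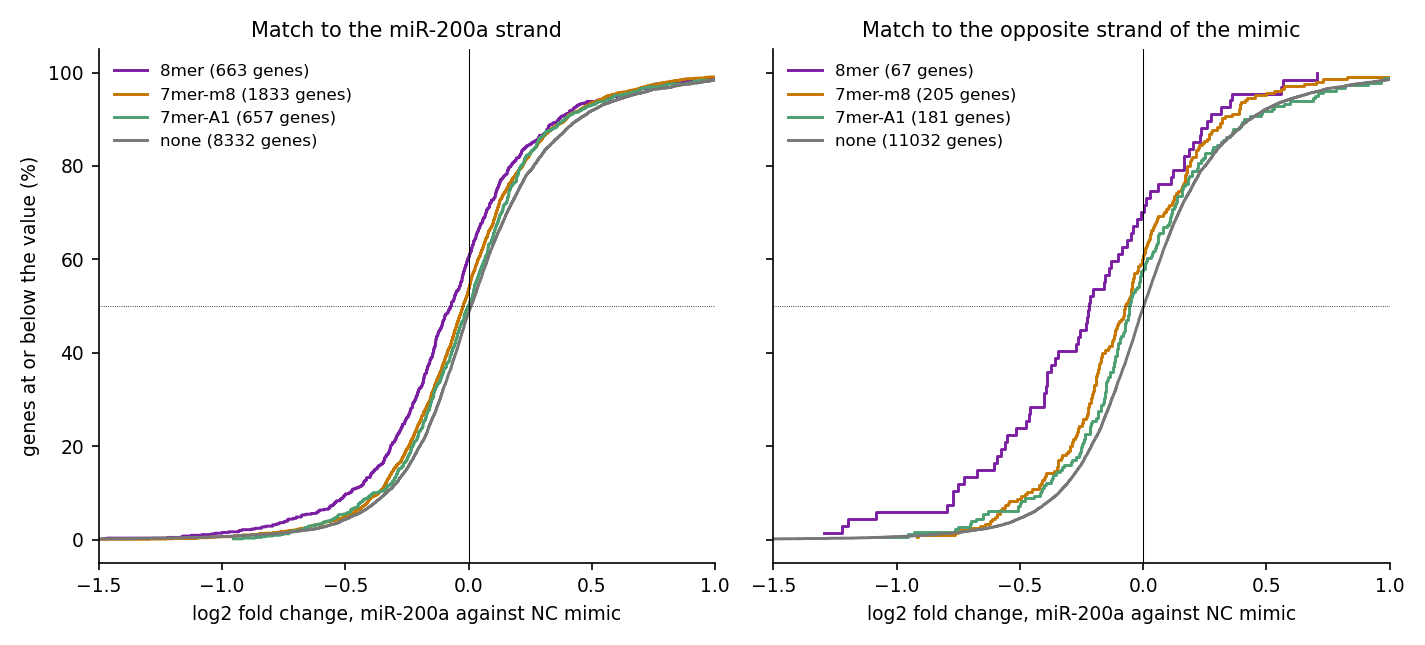
Cumulative share of genes (vertical axis, percent) at or below each log2 fold change (horizontal axis), by best match in the 3′UTR to the miR-200a strand (left) and to the opposite strand of the mimic (right). The curve for genes with an 8mer lies left of that for genes with none in both panels, by more for the 67 genes of the opposite strand (median -0.22) than for the 663 of miR-200a (median -0.07).

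Interferon-stimulated genes rose in part. Of 35 tested, 10 rose and 0 fell, beside 4.72% of all tested genes that rose. The median log2 fold change was 0.29, and 30 of the 35 values were above 0. With all 6 libraries in 1 model 1 of the 10, IFIT3, passed. IFIT3, an RNA-binding antiviral protein, went from 70.5 and 77.6 CPM to 158 and 161 CPM (2.16-fold, adjusted p = 1.27e-09). IFIT1 (1.96-fold), IFIT2 (1.96-fold), the exonuclease ISG20 (2.21-fold), the ubiquitin-like ISG15 (1.80-fold) and IFIH1, the RNA sensor MDA5 (1.87-fold), rose by similar amounts. MX1, at 22 and 21 counts and then 30 and 27, did not pass the test. The gene spans of the 3 IFIT genes overlap that of LIPA, so some reads may be shared. IFIT1, IFIT2, IFIT3 and ISG20 passed whichever library was left out, and 5 of the 10 remained without miR-200a replicate 1 and 4 without miR-200a replicate 2. Of 18 tested genes of MHC class I presentation, 1 rose (ERAP1) and 0 fell.

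Of 33 tested NF-kB, acute-phase and cytokine genes, 8 rose and 1 (IL11) fell, with a median of 0.13. Among all tested genes 4.72% rose and 3.17% fell. With all 6 libraries in 1 model 1 of the 9, LCN2, passed. Besides LCN2, the acute-phase genes SAA1 (1.63-fold) and SAA2 (1.84-fold), which are near-identical copies and may share reads, and CSF1, the macrophage growth factor, rose; CSF1 went from 462 and 484 CPM to 664 and 690.5 CPM (1.43-fold, adjusted p = 5.90e-07). IL6 (0.14 ± 0.11), CXCL8 (-0.13 ± 0.08) and the inhibitor NFKBIA (0.05 ± 0.06) did not pass. LCN2, CSF1, SAA1 and SAA2 passed whichever library was left out, and 5 of the 9 remained without miR-200a replicate 1 and 4 without miR-200a replicate 2.

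Growth factor signalling genes moved in both directions, beside 4.72% of all tested genes that rose and 3.17% that fell. EGR1, an immediate-early transcription factor, fell from 849 and 854 CPM to 499 and 524 CPM (-0.74 ± 0.06, adjusted p = 2.26e-10), and it passed whichever library was left out and with all 6 libraries in 1 model. In all, 4 of 23 tested AP-1 and immediate-early genes rose (JUND, ZFP36, KLF4 and KLF6) and 5 fell (EGR1, IER2, JUNB, FOSB and KLF2), while FOS itself stood at -0.17 ± 0.10 and did not pass. Of 17 tested feedback and output genes of the ERK pathway, 6 rose and 0 fell. The 6 were the feedback phosphatases DUSP4 (1.36-fold), DUSP5 (1.27-fold) and DUSP7 (1.77-fold), and the output genes CCND1 (cyclin D1, 1.36-fold), ETV4 and ETV5. CCND1 and DUSP4 passed whichever library was left out, and 3 of the 6 remained without miR-200a replicate 1 and 3 without miR-200a replicate 2. Of the 9 AP-1 and immediate-early genes that passed, 2 remained without miR-200a replicate 1 and 2 without miR-200a replicate 2. Of 10 tested ligands and receptors of the EGF family, EGFR (1.30-fold) and its ligand TGFA (1.37-fold) rose and HBEGF, EREG and NRG1 fell; without miR-200a replicate 1, 2 of the 5 remained.

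Of 17 tested ETS factors and SRF, 5 rose (ELF3, ETS1, ETV5, ETV4 and EHF) and ELK3 alone fell; 2 of the 6 (ELF3 and ELK3) remained without miR-200a replicate 1, without miR-200a replicate 2 and without NC mimic replicate 1. ELK1 (0.06 ± 0.12) and ELK4 (0.09 ± 0.15), the other ternary complex factors, and their partner SRF (0.07 ± 0.09) did not pass the test. Of 27 tested TGF-beta ligands, receptors and targets, 5 rose and 3 fell, beside 4.72% and 3.17% of all tested genes. BMP4, a bone morphogenetic protein, went from 124 and 114 CPM to 212 and 186 CPM (1.67-fold, adjusted p = 9.05e-07), and the co-receptor TGFBR3 rose 1.55-fold, while TGFB2 and the receptor TGFBR2 (-0.30 ± 0.09) fell. BMP4, TGFBR3 and TGFB2 passed whichever library was left out, and 3 of the 8 remained without miR-200a replicate 1, 3 without miR-200a replicate 2 and 0 with all 6 libraries in 1 model.

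Ribosomal protein genes were slightly lower. Of 81 tested cytosolic ribosomal protein genes, 16 fell and 0 rose, beside 3.17% of all tested genes that fell, and the median log2 fold change was -0.10, with 63 of the 81 values below 0. RPL7A went from 2638 and 2572 CPM to 2160.0 and 2127 CPM (-0.28 ± 0.05, adjusted p = 2.18e-04). These genes have many processed copies that can share reads. None of the 16 passed without miR-200a replicate 1, 1 passed without miR-200a replicate 2, and none with all 6 libraries in 1 model. Of 48 ribosome biogenesis genes, 40 had negative values, with a median of -0.13, and 1, NOLC1, fell. SRM, which encodes spermidine synthase, fell further, from 147 and 157 CPM to 82.6 and 83.8 CPM (-0.87 ± 0.09, adjusted p = 1.32e-07), and passed whichever library was left out and with all 6 libraries in 1 model, while MYC (-0.08 ± 0.10) did not pass.

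Amino-acid supply and redox genes were also lower in part, beside 3.17% of all tested genes that fell and 4.72% that rose. Of 38 tested tRNA synthetase and ATF4-dependent genes, 5 fell (TARS, SLC7A11, DDIT4, ASNS and SARS) and 2 rose (SLC7A5 and CEBPB), with a median of -0.12. SLC7A11, the cystine transporter, went from 147 and 178 CPM to 100.1 and 106 CPM (-0.65 ± 0.10), and SLC7A5, the large neutral amino-acid transporter, went from 44.9 and 37.8 CPM to 73.9 and 74.7 CPM (1.78-fold). Of 25 tested genes of KEAP1 and NRF2, 4 fell (AKR1B1, SLC7A11, FTH1 and TXNRD1) and 0 rose. TARS, SLC7A11, SLC7A5 and AKR1B1 passed whichever library was left out; of the 7 amino-acid genes, 3 remained without either of the miR-200a replicates in turn, and of the 4 redox genes 2 did.

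Of 44 tested genes of DNA replication and the G1/S transition, 3 fell (CCNE1, MCM10 and CDT1) and 0 rose, or 6.82% that passed beside 7.89% of all tested genes, with a median of -0.15, and of 40 mitotic genes 0 passed edgeR's test and 0 passed with DESeq2, with 30 values below 0 and a median of -0.10; 9 of the 40 had an unadjusted p under 0.05. With DESeq2, 0 of the 3 passed, and with all 6 libraries in 1 model 0 did. CDKN1C, which encodes the cyclin-dependent kinase inhibitor p57, rose from 20.2 and 23.5 CPM to 57.7 and 50.9 CPM (2.51-fold, adjusted p = 7.92e-07) and passed whichever library was left out, whereas CDKN1A, which encodes p21, did not pass (0.13 ± 0.09).

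**Figure D5:**
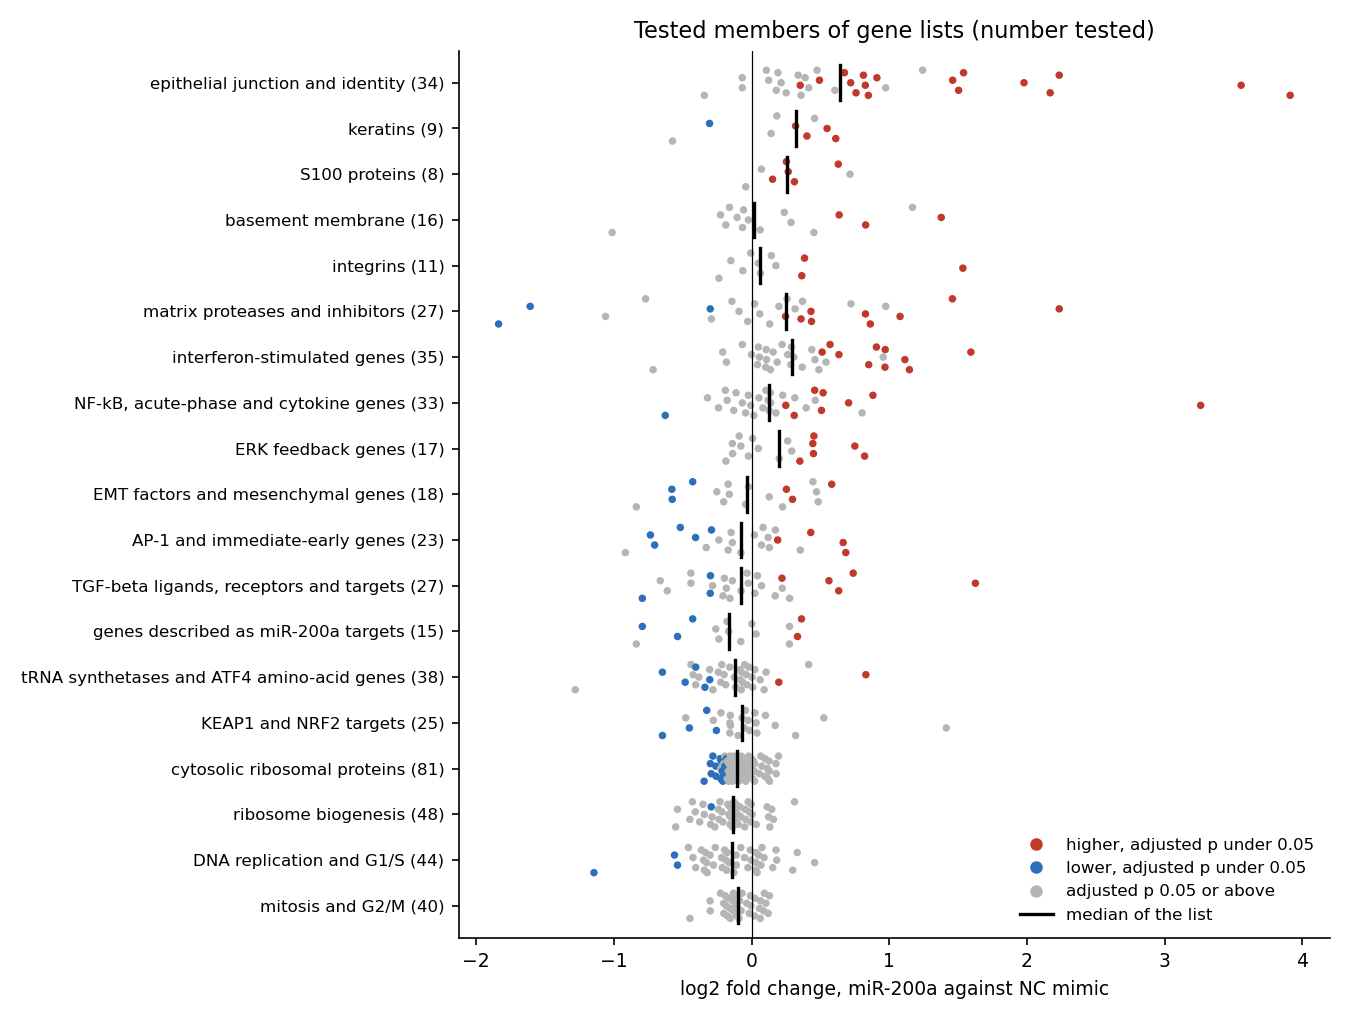
Log2 fold change of miR-200a against the NC mimic (horizontal axis) for each tested member of 19 gene lists, 1 point a gene, in colour where the adjusted p was under 0.05, with a bar at each list's median and the number tested in brackets. The epithelial list has 17 of its 34 points in the colour for higher and a median of 0.64, and the ribosomal protein list is narrow, with a median of -0.10.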

How the data were processed

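RNA of 4 libraries, 2 in each group, was measured by QuantSeq 3′ mRNA sequencing, which reads polyadenylated RNA near its 3′ end. The authors deposited raw read counts per gene symbol for each library, not normalized. The submitters' processing notes name Bowtie2, edgeR and the build hg19; the annotation, the counting program and its strand setting are not given in the sources used here. Symbols on several lines (286 of 24462) were summed. Counts were fitted in R 4.3.3 with edgeR 4.0.16 (TMM, filterByExpr with a minimum count of 10, two-sided quasi-likelihood test, residual degrees of freedom 2, Benjamini-Hochberg over the 12460 tested genes, threshold 0.05). The common biological coefficient of variation was 0.0606. The spread of each gene was moderated toward that of all tested genes, with a median of 28.1 prior degrees of freedom (7.32 with all 6 libraries). The p-value and SE of a gene therefore rest mostly on spread shared across genes. Each CPM used TMM-scaled totals, depth was 3055915 to 4868004 counts, and fold changes are miR-200a against the NC mimic. Log2 values are reported ± SE of the fit.

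Alternatives were DESeq2 1.42.0, limma 3.58.1, upper-quartile and RLE scaling, other filters, a replicate block, all 6 libraries in 1 model, and each library left out. On simulated data of 12460 genes for this comparison, of which 12301 were tested, the fit recovered 53.1% of genes changed 1.5-fold, 79.7% changed 2-fold and 92.3% changed 4-fold, and 2.03% of 148 calls were false. The simulated counts were drawn with the spread estimated from the same 4 libraries. The simulation therefore cannot show whether that spread is right, and its false share is no estimate for the 983 genes. Symbols were matched to GENCODE 29 on GRCh38, which is not the authors' build: 21875 matched directly and 730 by an older symbol from RefSeq, and 1857 did not match. The longest 3′UTR per gene was searched on the transcript strand for matches to bases 2 to 8 of each seed.

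The members and gene lists were chosen with earlier results of these data known. The named genes are the 15 largest rises and 15 largest falls among genes that passed the test, had a mean log2 CPM over 3 and did not overlap between groups, up to 4 members of each list that passed, by smallest p, the listed targets of miR-200a, and CDH1, TNS1 and LAMA5; other genes were named after their values were seen. Some genes that the rule or a list would name are not reported here. The replicates were checked for identity: counts within each group differed by more than sampling noise (chi-square over degrees of freedom 2.39 in the NC mimic group and 1.90 in the miR-200a group). No batch is given by the labels.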

Additional observations from a re-analysis of the deposited data

How the results depend on the processing

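The count of 983 genes that passed the test was 34 with all 6 libraries in 1 model, 356 in DESeq2, 0 in limma on quantile-normalized log2(count + 1) (1880 at an unadjusted p under 0.05, smallest adjusted p 0.172) and 380 with a fold over 1.5 added, and it ranged from 243 to 1099 with 1 library left out. All 34 and all 356 genes were among the 983. The common biological coefficient of variation was 0.138 over all 6 libraries and 0.0606 over the 4. Scaling and filters gave 981 to 1106 genes. None of the 983 changed sign in these alternatives except 1 in limma. The 520 genes past the criteria of the study were 340 in DESeq2; all other alternatives gave 417 to 738. The replicate numbers did not pair the libraries (correlation of same-numbered deviations 0.003, with 2 pairs), and with a replicate block 981 genes passed, 948 of them among the 983. The medians of both 8mer classes moved by less than their spread over library pairings. Of 134 named genes that passed the test, 56 passed whichever library was left out, 91 passed in DESeq2 and 15 with all 6 libraries in 1 model. Sign changed for 3 genes that did not pass: GAB1 (-0.046 to 0.54 with 1 library left out), KEAP1 (-0.12 to 0.26) and E2F3 (-0.15 to 0.14 with 1 library left out, -0.020 with all 6 libraries, -0.0018 in DESeq2, -0.0013 in limma and -0.013 with upper-quartile scaling). The cause of these differences was not tested. At these depths, 12460 of 24462 gene symbols had enough counts to be tested.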

Other observations

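Counts of other gene groups are given beside 4.72% of all tested genes that rose and 3.17% that fell. Of 77 tested mitochondrial ribosomal proteins, 1 fell (MRPL14) and 0 rose, with a median log2 fold change of -0.02, and of 76 nuclear-encoded respiratory chain genes, 5 rose and 3 fell (median -0.04). The gene span of NDUFA7, 1 of the 5, overlaps that of RPS28, and some reads may be shared. Of 35 chaperones, HSPA8, HSPA9, HSPD1 and P4HB fell and HSPB1 rose (median -0.07). Of 33 genes of glycolysis and the hypoxia response, SLC2A3 and NDRG1 rose and ENO2, ANKRD37 and P4HA1 fell. Of 32 genes of cholesterol and fatty acid synthesis, 3 rose, MVK among them, and 0 fell (median 0.09), and of 34 lysosomal genes GRN and CTSZ rose. None of these 5 passed without miR-200a replicate 1, without miR-200a replicate 2 or with all 6 libraries in 1 model, and none of the 3 passed in DESeq2. Of 26 actin cytoskeleton genes of SRF, FLNA, CFL2, TAGLN2 and ACTG1 rose and 0 fell (median 0.09), none of which passed without miR-200a replicate 1 or without miR-200a replicate 2. Of 25 genes of the YAP pathway, STK4, SAV1 and AMOTL2 rose and PTPN14, which carries 3 matches to bases 2 to 8 of miR-200a, fell (-0.40 ± 0.06). None of these YAP pathway genes passed with all 6 libraries in 1 model. Of 24 p53-type stress genes, PLK2 and RRM2B rose and MDM2 fell, and of 6 metallothioneins, MT1X fell. None of these genes passed in DESeq2 or with all 6 libraries in 1 model. Of 12 tested CDK inhibitors and cyclins, CDKN1C, CCND1 and CDK6 rose and RB1 fell. Of the 4 luminal markers with enough counts, KRT19 rose.

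MALAT1, a nuclear long noncoding RNA and the gene with the most counts in every library, took 1.49% and 1.53% of counts with the NC mimic and 1.93% in each miR-200a library (1.28-fold, adjusted p = 2.15e-07). ARHGEF5 (2.52-fold) and ARHGEF35 (2.80-fold), near-identical neighbouring copies that may share reads, were both higher. Genes too scarce to be tested rose from at or below the floor in the raw counts: IL20RA had 1 count in each NC mimic library and 11 and 10 with miR-200a, and RAB17, a GTPase of epithelial traffic, had 1 in each and then 10 and 12. These genes were chosen after their values were seen.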
